A study of Homo sapiens with 24 samples.

Results

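Serum response factor (SRF) and 9 genes of the smooth-muscle-type actin cytoskeleton were followed across 24 RNA-seq libraries of T/C-28a2 cells, an immortalised human chondrocyte line. The 10 genes were ACTA2, ACTG2, TAGLN, CNN1, CNN2, MYL9, TPM1, TPM4, SRF and LMOD1, chosen by name as contractile genes driven by SRF and matched by symbol to 10 of the 62703 gene identifiers counted. SRF is a transcription factor that binds a short DNA element, the CArG box. When monomeric actin is scarce, the cofactors MRTFA and MRTFB are freed to enter the nucleus and act with SRF on actin and contractile genes, whereas the ternary complex factors ELK1, ELK3 and ELK4 direct SRF to immediate early genes such as FOS and EGR1. In chondrocytes a strong actin cytoskeleton is known to accompany spreading and loss of the cartilage phenotype.

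Each of the 6 groups held 4 libraries. WT Ctr was the parental line, untransfected and in isotonic medium, and WT Sor was the same line under 100 mM sorbitol, a hyperosmotic stress, for 7 days. In WNK2 trans Ctr and WNK2 trans Sor the parental line received a WNK2 expression plasmid by lipid transfection for 48 hours before isotonic or sorbitol medium, so the plasmid was transient, and the comparison group was untransfected. WNK2- Ctr and WNK2- Sor were a clonal line in which CRISPR/Cas9 had deleted exon 2 of WNK2, a kinase of the osmotic stress response, so that the genotype cannot be told apart from the isolation of that clone. In bulk libraries, fewer cells of a type and less RNA per cell cannot be told apart either.

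The WNK2 gene itself was counted against the labels. Normalized counts (reads divided by the effective size of the library and scaled to the mean effective size) ran from 1441 to 3409 in the 4 libraries labelled WT Ctr and from 183 to 296 in those labelled WNK2 trans Ctr, where the plasmid should raise them. WNK2 trans Sor libraries held 2245 to 3793. The remaining groups were low, with 283 to 319 (WT Sor), 388 to 417 (WNK2- Ctr) and 311 to 419 (WNK2- Sor). The groups are therefore written as the libraries were labelled, and where a call made against one of the isotonic groups WT Ctr and WNK2 trans Ctr ends or turns against the other, both values are given. Total counts ran from 14153002 to 25664619 per library, and those of the WNK2- line (from 18578564) were mostly above the others. Of the chondrocyte markers, SOX9 was listed at 0 in all 24 libraries, COL2A1 averaged 0.335 to 9.76 CPM per group (CPM, counts scaled to a common library total), and the 10 markers summed to 18.6 to 156 CPM. The fibroblast and myofibroblast markers summed to 8785 to 37186 CPM. MYH11 and DES, which define mature smooth muscle, averaged 0.857 to 3.63 CPM and 0 to 0.124 CPM.

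The CArG box was searched by name on both strands of RefSeq promoters (GRCh38.p14, 250 bases before to 50 after each start). It is the element through which SRF is known to reach these genes. Only exact matches were counted, CC and GG around a fixed run of A or T letters. A box that departs from this pattern by a letter would be missed. The 8 genes in the table had 12 promoters, of which 4 held the box (1 each of ACTG2, CNN2, TPM4 and SRF itself), beside 1.29% of all 35116 promoters. The genes were chosen as driven by SRF, so this share is no test of enrichment. No exact match to the box was found in the windows of ACTA2, CNN1, TPM1 and LMOD1. ACTG2 carried it 110 and 73 bases before its start, SRF 30 and 10 bases, CNN2 89 bases and TPM4 173 bases. Capitals mark the box in the following stretches, all on the plus strand.
ACTG2, chr2:73892888-73892917: gaaaaaaccaCCTTATATGGtaatattgct
ACTG2, chr2:73892925-73892954: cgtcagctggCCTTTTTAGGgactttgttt
SRF, chr6:43171239-43171268: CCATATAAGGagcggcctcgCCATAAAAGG
CNN2, chr19:1026509-1026538: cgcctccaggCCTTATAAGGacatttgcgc
TPM4, chr19:16067355-16067384: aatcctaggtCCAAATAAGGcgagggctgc
A match describes these letters only and is no evidence of binding in these cells.

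Of the 10 genes, 8 passed the filter on low counts and were tested among 16600 genes. ACTA2 (smooth muscle alpha-actin) and MYL9 (the regulatory light chain of myosin) were listed at 0 in all 24 libraries. TMSB10 and JUNB, which most cells use, were also listed at 0, so that a 0 is not read here as absence of the transcript. ACTA2 shares exonic sequence with FAS and ACTA2-AS1 in the GENCODE 29 annotation, and MYL9 shares none. Per kilobase of exon, TPM4 stood highest, at group means of 94.9 to 123 CPM, followed by CNN2 at 59.1 to 96.2, TPM1 at 17.4 to 34.5 and SRF at 12.8 to 24.6. TAGLN (3.62 to 24.5), CNN1 (2.89 to 9.84) and ACTG2 (2.73 to 6.10) were lower, and LMOD1 (0.0878 to 0.212) was near the limit of the filter. The ranges of neighbouring genes in this order overlapped, apart from the steps between CNN2 and TPM1 and between ACTG2 and LMOD1. The order depends on the length used, which joins all annotated exons of a gene (12876 bases for TPM1 and 3645 for CNN2). Before division by length, TPM1 had the higher mean normalized count of these 2 genes in every group.

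In the exon 2 deletion line without sorbitol, the contractile genes that passed the test were all higher than in the libraries labelled WT Ctr: TAGLN, ACTG2, CNN2, TPM1 and SRF, 5 of 8, against 42.1% of all genes called in either direction by edgeR's quasi-likelihood test (adjusted p under 0.05). The median log2 fold change of the 8 was 0.49 beside 0.002 over all genes. Against the libraries labelled WNK2 trans Ctr, 3 were called, TAGLN, ACTG2 and CNN2, all higher, beside 47.7% of all genes. Under sorbitol the picture was mixed. Compared with WT Sor, WNK2- Sor had more TAGLN and less CNN1 and TPM1, 3 of 8 beside 46.3% of all genes.

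Sorbitol was followed by different changes in the 3 backgrounds. In the parental line TPM1 rose and TPM4 fell, 2 of 8 beside 24.1% of all genes. In the deletion line 4 of 8 fell (ACTG2, CNN1, TPM1 and TPM4) and none rose, beside 14.9% of all genes. In the libraries labelled WNK2 trans, 6 of 8 changed, with ACTG2 and LMOD1 higher and CNN1, SRF, TAGLN and TPM1 lower, beside 48% of all genes. The libraries labelled WNK2 trans Ctr had 1 of 8 called against WT Ctr, TAGLN, which was higher (12.5% of all genes). Those labelled WNK2 trans Sor had 3 of 8 called against WT Sor, with CNN1, TAGLN and TPM1 lower (31.7%), and 5 of 8 against WT Ctr, with ACTG2 higher and CNN1, TAGLN, TPM1 and TPM4 lower (39.2%). WT Sor differed from WNK2 trans Ctr in ACTG2 alone of the 8, which was higher (15.1%). Several of these comparisons share control libraries and are not independent of each other.

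**Figure D1:**
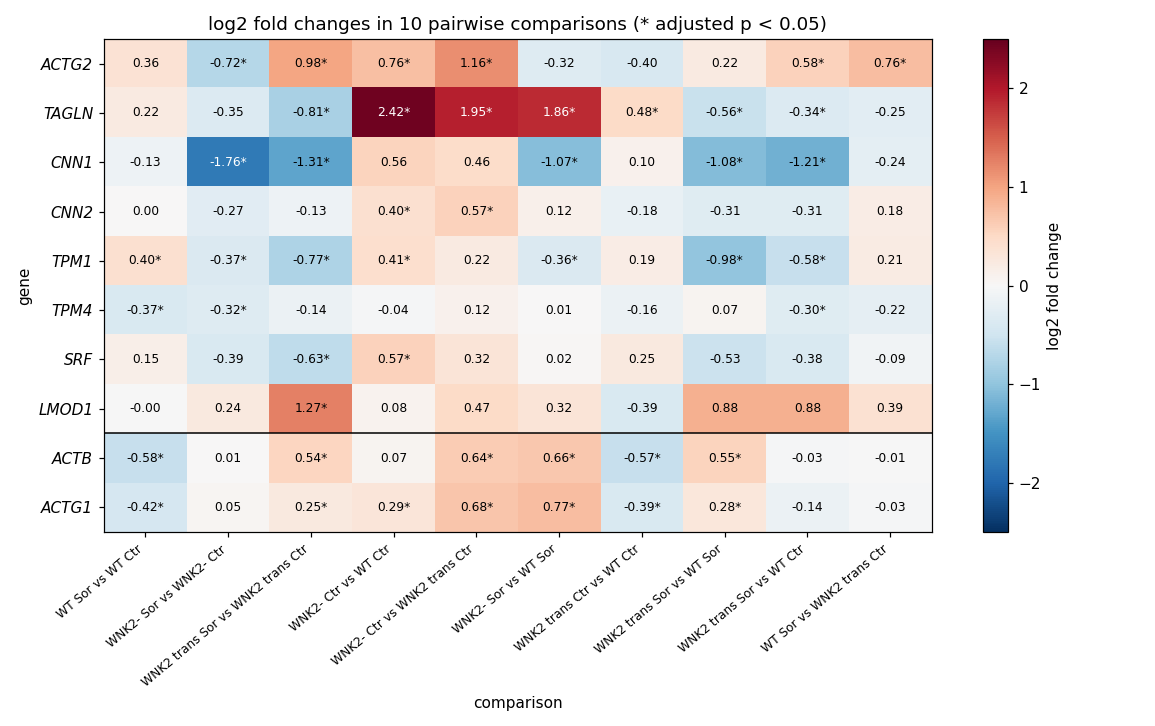
log2 fold changes (colour scale and printed values) of the 8 tested genes and, under the line, of the cytoplasmic actins ACTB and ACTG1, in 10 pairwise comparisons, where * marks an adjusted p under 0.05. TAGLN reached 2.42 in WNK2- Ctr against WT Ctr, and CNN1 reached −1.76 in WNK2- Sor against WNK2- Ctr.

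SRF, the transcription factor (chromosome 6, 43171299 to 43181507), was scattered in WT Ctr and WNK2 trans Sor and closer together in the other groups. Its normalized counts were 1726, 709, 1035 and 1657 in the WT Ctr libraries and 1459, 1415, 1346 and 1482 in WT Sor. In WNK2 trans Ctr they were 1361, 1402, 1697 and 1616, and in WNK2 trans Sor 1513, 550.1, 874 and 1004. WNK2- Ctr held 2151, 1839, 1718 and 1883, and WNK2- Sor 1258, 1689, 1335 and 1513. WNK2- Ctr was highest on average, overlapping WT Ctr in 1 library of WT Ctr, and WNK2 trans Sor was lowest. SRF was higher in WNK2- Ctr than in WT Ctr by a log2 fold change of 0.57 (SE 0.22, edgeR adjusted p = 0.0447). The call did not hold under 19 of 31 alternative settings, WT Ctr replicates 2 and 3 left out in turn among them (adjusted p up to 0.183), and was not made against WNK2 trans Ctr (0.32, adjusted p = 0.248). In WNK2 trans Sor it was lower than in WNK2 trans Ctr, by −0.63 (SE 0.23, edgeR adjusted p = 0.0250), with overlapping groups, and the call ended without WNK2 trans Ctr replicate 3 or 4 or WNK2 trans Sor replicate 2 or 3 and against WT Ctr (−0.38, adjusted p = 0.187). With each library's trend by GC content and length taken out, that difference was −0.23 (adjusted p = 0.135), whereas the one in WNK2- Ctr was 0.63 (adjusted p = 0.000162).

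The spread of SRF followed a trend that the libraries showed over all genes. The log2 CPM of a gene, taken as its deviation from the mean of the 24 libraries, changed by −0.42 to 0.28 for each 10 points of GC content, depending on the library, and from −0.23 to 0.23 within WT Ctr alone. The longest SRF transcript had 60.95% GC, beside a median of 48.54% over 15980 tested genes with a transcript (96.3%). Across the 24 libraries the log2 CPM of SRF correlated with the trend at r = 0.82, and within groups at 0.94. The calponins followed it within groups as well, CNN2 at 0.93 and CNN1 at 0.85, and so did TPM1 (0.71), although its GC content was only 45.94%. ACTG2 was at 0.66 and TAGLN at 0.58, while TPM4, with 48.49% GC (−0.24), and LMOD1 (0.08) did not follow it. These are descriptions over libraries that fall into groups and differ in depth.

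**Figure D2:**
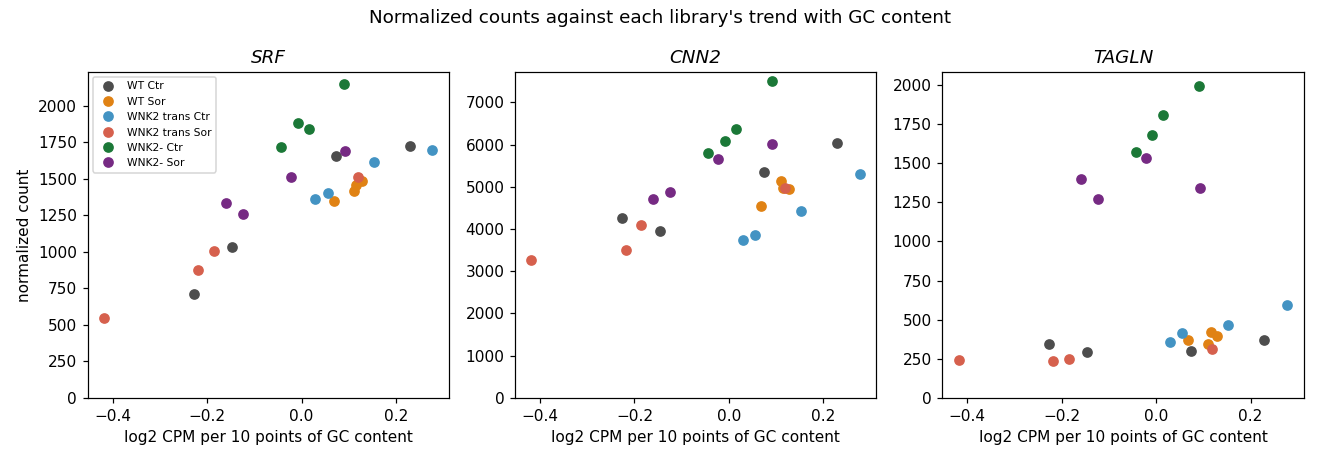
Normalized counts of SRF, CNN2 and TAGLN (y axes, from 0) against the change of log2 CPM per 10 points of GC content in the same library (x axes), 1 point per library, coloured by group. SRF rose with the trend (r = 0.82 over 24 libraries), whereas the 8 WNK2- libraries had more TAGLN than the other 16 at any value of the trend.

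ACTG2, the enteric smooth muscle gamma-actin (chromosome 2, 73892314 to 73919865), is close in sequence to ACTA2, ACTB and ACTG1, so reads of these genes may have been split or discarded in counting. It had 301, 249.9, 173 and 288 normalized counts in WT Ctr and 307, 324, 342 and 325 in WT Sor. WNK2 trans Ctr held 136, 183, 259 and 187, the lowest group, and WNK2 trans Sor 455, 363, 321 and 376. In the deletion line the counts were 480.4, 441, 368 and 419.8 without sorbitol and 254, 254, 235 and 294 with it. Every WNK2- Ctr library lay above every library of both isotonic parental groups, with log2 fold changes of 0.76 against WT Ctr (SE 0.16, edgeR adjusted p = 0.000553) and 1.16 against WNK2 trans Ctr (SE 0.16, adjusted p = 2.42e-06). Sorbitol lowered it in the deletion line, by −0.72 (SE 0.16, adjusted p = 0.00251), and the groups did not overlap. In WNK2 trans Sor it was higher than in WNK2 trans Ctr, by 0.98 (SE 0.17, adjusted p = 2.77e-05). WT Sor lay above WT Ctr in every library, but the difference of 0.36 did not pass the test (adjusted p = 0.114). It was 0.76 against WNK2 trans Ctr (adjusted p = 0.00219).

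The cytoplasmic actins took another course. ACTB, far more abundant at group means of 1360.1 to 2155 CPM per kilobase of exon, was lower in WT Sor than in WT Ctr, by −0.58 (edgeR adjusted p = 0.00054), and ACTG1 by −0.42 (adjusted p = 0.00367). In WNK2 trans Sor against WNK2 trans Ctr both were higher, ACTB by 0.54 and ACTG1 by 0.25. In WNK2- Sor against WNK2- Ctr neither passed the test, with log2 fold changes of 0.01 for ACTB and 0.05 for ACTG1. These differences rested on which isotonic group was subtracted. Against WNK2 trans Ctr, WT Sor differed by −0.01 in ACTB (edgeR adjusted p = 0.962) and −0.03 in ACTG1 (adjusted p = 0.891), and against WT Ctr, WNK2 trans Sor differed by −0.03 (adjusted p = 0.859) and −0.14 (adjusted p = 0.270).

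TAGLN encodes transgelin, an actin-bundling protein and an early marker of smooth muscle differentiation (chromosome 11, 117199321 to 117204782), and it set the deletion line apart most clearly among the 8 genes. Its normalized counts were 371, 345, 296 and 301 in WT Ctr and 419, 343, 371 and 397 in WT Sor. The libraries labelled WNK2 trans Ctr held 354, 414, 594 and 465, and WNK2 trans Sor 310.5, 245, 235 and 252. In WNK2- Ctr the counts were 1995, 1809, 1569 and 1681, and in WNK2- Sor 1269, 1341, 1402 and 1536. All 8 WNK2- libraries lay above all 16 others. WNK2- Ctr exceeded WT Ctr by a log2 fold change of 2.42 (5.37-fold, SE 0.13, edgeR adjusted p = 2.97e-13) and WNK2 trans Ctr by 1.95 (SE 0.13, adjusted p = 5.11e-12). Under sorbitol WNK2- exceeded WT by 1.86 (SE 0.13, adjusted p = 1.32e-11). These 3 calls held under all 31 alternative settings. PCSK7 overlaps exons of TAGLN on the opposite strand, and other annotated genes overlap exons of CNN2, TPM1, TPM4 and LMOD1 in the same way. The strand setting of the counting was not given in the sources used here.

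Among the parental groups TAGLN differed less. In WNK2 trans Sor every library lay below every WT Sor and WNK2 trans Ctr library, by −0.56 (SE 0.13, edgeR adjusted p = 0.00223) and −0.81 (SE 0.13, adjusted p = 1.75e-05). It was higher in WNK2 trans Ctr than in WT Ctr by 0.48 (adjusted p = 0.0164), with overlapping groups, and without WNK2 trans Ctr replicate 3 the value was 0.33 (adjusted p = 0.0812). Its call in WNK2 trans Sor against WT Ctr (−0.34, adjusted p = 0.0474) was lost under 24 of 31 settings. Sorbitol gave no call in the parental line (0.22, adjusted p = 0.234) or in the deletion line (−0.35, adjusted p = 0.0604), although every WNK2- Sor library lay below every WNK2- Ctr library and 9 of 31 settings made the latter call (adjusted p from 0.00451 to 0.177).

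**Figure D3:**
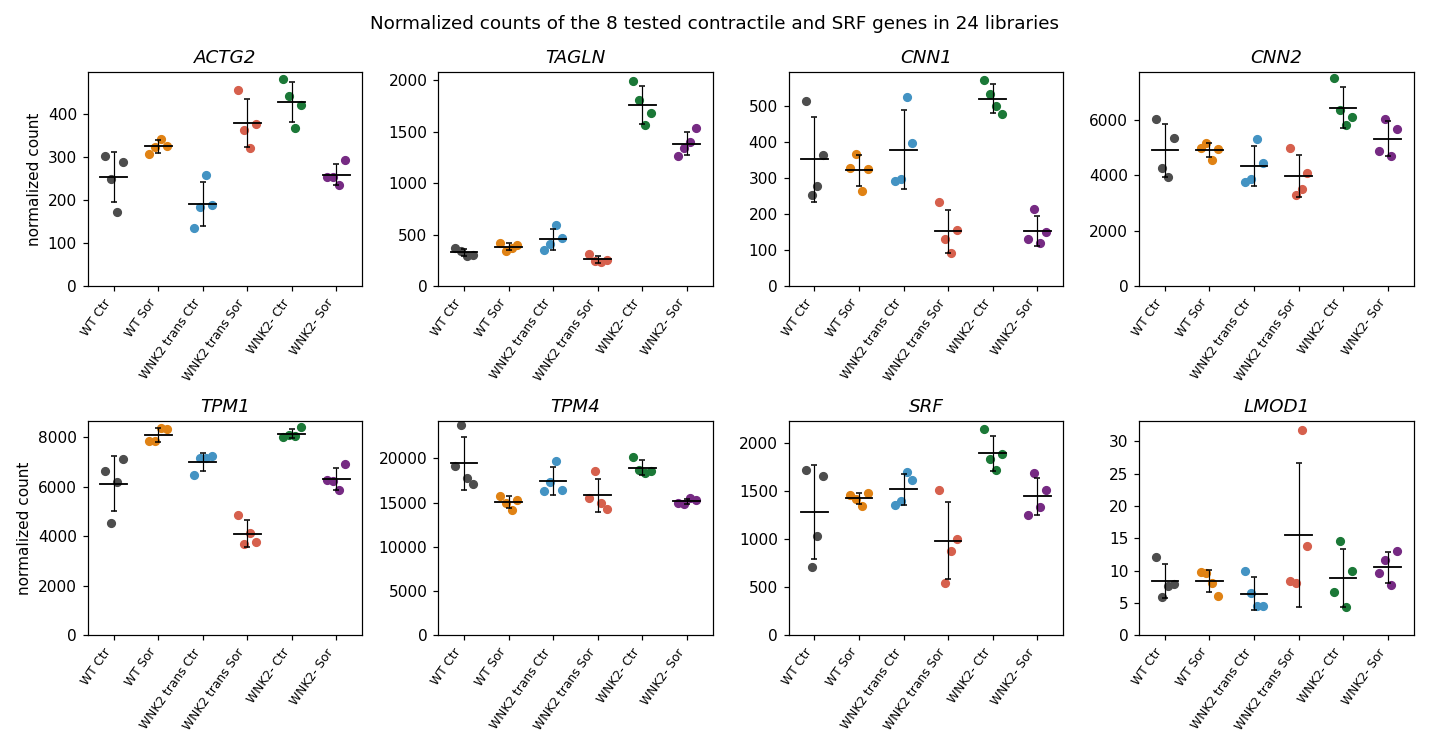
Normalized counts (y axes, from 0) of the 8 tested genes in the 6 groups. Each point is a library, horizontal lines are means and bars are 1 SD of 4 libraries. All 8 WNK2- libraries exceeded the other 16 in TAGLN, and CNN1 was lowest in WNK2 trans Sor and WNK2- Sor.

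CNN1, the calponin of differentiated smooth muscle, which binds actin and restrains myosin (chromosome 19, 11538717 to 11550323), was lowest in both WNK2 trans Sor and WNK2- Sor. It had 516, 255, 278 and 364 normalized counts in WT Ctr and 329.9, 368, 264 and 326 in WT Sor. WNK2 trans Ctr held 292, 299, 527 and 398, and WNK2 trans Sor 233, 131, 91.9 and 155. WNK2- Ctr held 572, 534, 500.0 and 479, and WNK2- Sor 129.7, 214, 119 and 151. The 8 libraries of WNK2 trans Sor and WNK2- Sor lay below the other 16. Sorbitol lowered CNN1 in the deletion line by −1.76 (0.295-fold, SE 0.24, edgeR adjusted p = 1.06e-05). In WNK2 trans Sor against WNK2 trans Ctr the difference was −1.31 (SE 0.25, adjusted p = 0.000111). In the parental line it was −0.13 (SE 0.24, adjusted p = 0.729), and −0.24 against WNK2 trans Ctr (adjusted p = 0.570). Under sorbitol, WNK2- had less CNN1 than WT (−1.07, SE 0.24, adjusted p = 0.00085), and without sorbitol the difference of 0.56 did not pass the test (adjusted p = 0.0572; 0.63 and adjusted p = 0.00146 after the GC correction; 0.46 and adjusted p = 0.110 against WNK2 trans Ctr).

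CNN2, the calponin of non-muscle cells (chromosome 19, 1026581 to 1039068), was more abundant and moved less. Group means ran from 3958 normalized counts in WNK2 trans Sor to 6440 in WNK2- Ctr. The lowest, median and highest libraries were 3943, 4803 and 6039 in WT Ctr and 5798, 6225 and 7513 in WNK2- Ctr, so these groups overlapped. WNK2- Ctr was higher than WT Ctr by 0.40 (SE 0.14, edgeR adjusted p = 0.0243) and than WNK2 trans Ctr by 0.57 (SE 0.14, adjusted p = 0.00143), the latter without overlap. The former was lost without WT Ctr replicate 2 or 3 or WNK2- Ctr replicate 1, where its adjusted p reached 0.0945. No other pairwise comparison of CNN2 passed the test.

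TPM1 encodes a tropomyosin of muscle and of stress fibres (chromosome 15, 63042632 to 63071915), which lies along the actin filament and governs access of myosin. The WT Ctr libraries had 6656, 4543, 6200 and 7129 normalized counts, below the 7869, 7839, 8357 and 8348 of WT Sor. WNK2 trans Ctr held 6481, 7178, 7167 and 7225, and WNK2 trans Sor 4872, 3698, 4122 and 3761. WNK2- Ctr held 8019, 8089, 8072 and 8412, and WNK2- Sor 6287, 6229, 5867 and 6910. Sorbitol libraries were thus above their controls in the parental line and below them in the other backgrounds, without overlap in any of the 3. The log2 fold changes were 0.40 in the parental line (SE 0.10, edgeR adjusted p = 0.00642), −0.37 in the deletion line (SE 0.10, adjusted p = 0.0167; up to 0.0599 without WNK2- Ctr replicate 4 or WNK2- Sor replicate 3) and −0.77 in the libraries labelled WNK2 trans (SE 0.10, adjusted p = 1.45e-06). WNK2 trans Sor was below WT Sor by −0.98 (SE 0.11, adjusted p = 1.05e-07). WNK2- Ctr was above WT Ctr by 0.41 (SE 0.10, edgeR adjusted p = 0.0025). Its difference from WNK2 trans Ctr, 0.22, did not pass the test (adjusted p = 0.0903), although WNK2- Ctr lay above both isotonic groups in every library. Against WNK2 trans Ctr, WT Sor was higher by 0.21, which did not pass the test (adjusted p = 0.194), although no libraries overlapped.

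TPM4, the shorter non-muscle tropomyosin of stress fibres (chromosome 19, 16067021 to 16103005), was lower under sorbitol in the deletion line, and in the parental line when compared with WT Ctr. It had 19165, 23723, 17828 and 17077 normalized counts in WT Ctr, and 15772, 14916, 14172 and 15284 in WT Sor. WNK2- Ctr held 20190.2, 18709, 18298 and 18520.1, and WNK2- Sor 14945, 14874, 15526 and 15245. The groups did not overlap in either background. The fall in the parental line was −0.37 (SE 0.09, edgeR adjusted p = 0.00549; 0.0507 with these 2 groups fitted alone). Against WNK2 trans Ctr, WT Sor was lower in every library, but the difference of −0.22 did not pass the test (adjusted p = 0.131). In the deletion line the fall was −0.32 (SE 0.09, adjusted p = 0.0200; up to 0.0535 without WNK2- Ctr replicate 1 or WNK2- Sor replicate 1). The call of TPM4 in WNK2 trans Sor against WT Ctr (−0.30, adjusted p = 0.0143) ended without WT Ctr replicate 2 or WNK2 trans Sor replicate 4 (adjusted p up to 0.183 over its settings). WNK2 trans Sor differed from WNK2 trans Ctr by −0.14 (adjusted p = 0.219), and the test of the difference between the deletion and parental responses gave 0.05 (SE 0.13, adjusted p = 0.865) or, with WNK2 trans Ctr as the parental control, −0.11 (adjusted p = 0.834).

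LMOD1, leiomodin, which nucleates actin filaments in smooth muscle (chromosome 1, 201896452 to 201946588), rested on 4 to 30 reads per library. It passed the filter through 6 libraries at or above 0.571 CPM, of which 2 were labelled WNK2 trans Sor. WNK2 trans Sor had 7, 8, 30 and 15 reads and WNK2 trans Ctr 8, 8, 4 and 4. The log2 fold change of 1.27 (SE 0.46, edgeR adjusted p = 0.0262) came with overlapping groups, and without WNK2 trans Sor replicate 3 it was 0.66 (adjusted p = 0.246). The call also ended without WNK2 trans Ctr replicate 2, 3 or 4, and against WT Ctr (0.88, adjusted p = 0.126).

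Whether the response to sorbitol differed between backgrounds was tested by the interaction terms. For genotype, 4 of 8 genes were called, beside 8.65% of all genes, and all 4 responded lower in the deletion line than in the parental line. The differences between the 2 log2 fold changes were −1.63 for CNN1 (SE 0.34, edgeR adjusted p = 0.00315), −1.08 for ACTG2 (SE 0.23, adjusted p = 0.00363), −0.77 for TPM1 (SE 0.15, adjusted p = 0.00147) and −0.57 for TAGLN (SE 0.18, adjusted p = 0.0496). The TAGLN term was lost under 17 of 31 settings, the others under none. For transfection, 4 of 8 were called beside 35.5% of all genes, with −1.18 for CNN1 (adjusted p = 0.00929), −1.17 for TPM1 (adjusted p = 8.51e-07) and −1.03 for TAGLN (adjusted p = 0.000111). ACTG2 went the other way, at 0.62 (adjusted p = 0.0389), and lost its call under 18 of 31 settings. Both terms subtract the libraries labelled WT Ctr. With WT Ctr and WNK2 trans Ctr put in each other's place, 3 of 8 genes were called for genotype beside 3.39% of all genes, CNN1 (−1.53, edgeR adjusted p = 0.00864), ACTG2 (−1.48, adjusted p = 0.000231) and TPM1 (−0.57, adjusted p = 0.0261), whereas TAGLN was at −0.09 (adjusted p = 0.909). For transfection only TPM1 was called of the 8, at −0.78 (adjusted p = 0.00162), beside 5.46% of all genes. CNN1 was then at −0.97 (adjusted p = 0.1004) and TAGLN at −0.08 (adjusted p = 0.862), and ACTG2 turned to −0.18 (adjusted p = 0.741).

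**Figure D4:**
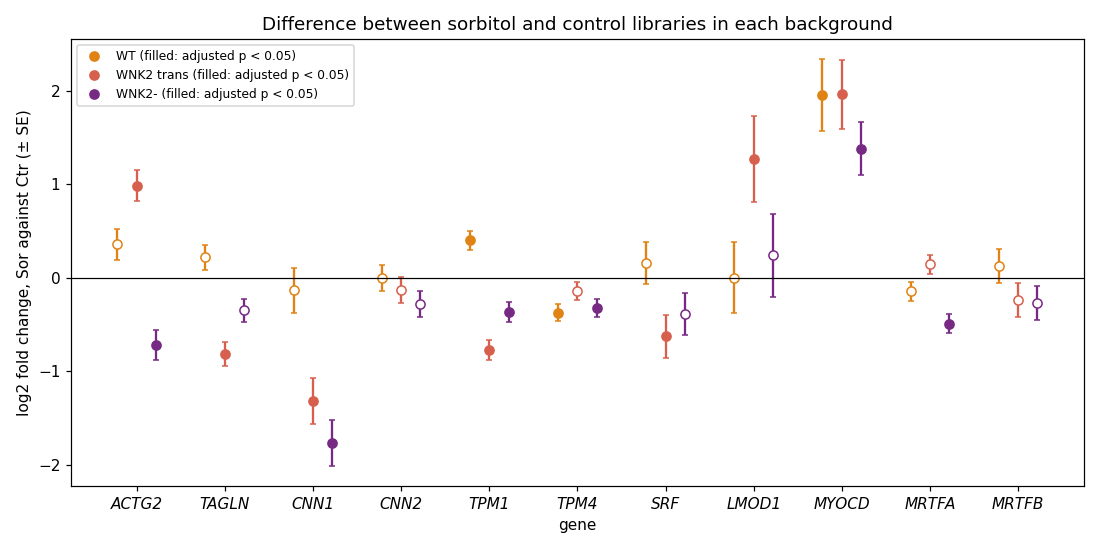
log2 fold change of the sorbitol against the control libraries (y axis, ± SE) for the 8 tested genes and 3 SRF cofactors, in the parental line (WT), the libraries labelled WNK2 trans and the deletion line (WNK2-). Filled points passed the test. MYOCD was above 0 in all 3 backgrounds, and TPM1 and ACTG2 moved in opposite directions between backgrounds.

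Among 7 SRF cofactors and their regulators, all tested, MYOCD (myocardin, the cofactor of cardiac and smooth muscle) was higher after sorbitol in each background. The parental libraries had 4 to 15 reads without sorbitol and 32 to 54 with it, and those labelled WNK2 trans had 3 to 20 and 34 to 64. In the deletion line the reads were 57 to 110 and 169 to 271. MYOCD remained a low transcript, at 9.23 CPM in the highest group mean. The log2 fold changes of MYOCD were 1.95 in the parental line (SE 0.38, edgeR adjusted p = 0.000621), 1.38 in the deletion line (SE 0.29, adjusted p = 0.00126) and 1.96 in WNK2 trans (SE 0.37, adjusted p = 0.00011). With the isotonic groups exchanged, WT Sor exceeded WNK2 trans Ctr by 1.88 and WNK2 trans Sor exceeded WT Ctr by 2.04. WNK2- Ctr exceeded WT Ctr by 2.53 (SE 0.37, adjusted p = 5.21e-06) and WNK2 trans Ctr by 2.46 (SE 0.36, adjusted p = 3.55e-06). Neither interaction term was called for MYOCD. It is also a smooth muscle marker. Of the 7 markers of that list 4 were tested, and KCNMB1 and PLN were listed at 0. In WNK2- Ctr against WT Ctr 2 were higher (MYOCD and SMTN) and 1 lower (MYH11), beside 42.1% of all genes. The 7 summed to 119 to 157 CPM in WNK2- Ctr and 52.6 to 77.5 in WT Ctr. The sums were 110 to 163 CPM in WNK2 trans Sor and 176 to 228 in WNK2- Sor. They were 43.0 to 54.3 CPM in WNK2 trans Ctr and 69.5 to 75.6 in WT Sor.

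MRTFA, the actin-regulated cofactor, fell in the deletion line after sorbitol, by −0.49 (SE 0.10, edgeR adjusted p = 0.00112). In WNK2- Sor against WT Sor 2 of the 7 were higher, led by MYOCD, and 3 lower, led by ELK4, beside 46.3% of all genes. MRTFB was among the latter, at −0.46 (adjusted p = 0.0405). The ternary complex factor ELK4 fell with sorbitol in the deletion line (−0.49, adjusted p = 0.0153) and in WNK2 trans (−0.42, adjusted p = 0.0129), ELK3 rose in the deletion line (0.44, adjusted p = 0.000948), and ELK1 fell in WNK2 trans (−0.58, adjusted p = 0.0114). SCAI, which represses the MRTF cofactors, rose in WNK2 trans by 0.42 (adjusted p = 0.0276). Against WT Ctr, WNK2 trans Sor had no call for ELK4 (−0.33, adjusted p = 0.0546), ELK1 (−0.17, adjusted p = 0.482) or SCAI (0.18, adjusted p = 0.361). ELK3 led the 2 of 7 called higher in WNK2 trans Sor than in WT Sor (31.7% of all genes). Neither of its interaction terms was called with the groups as labelled. With the isotonic groups exchanged they were 0.58 for genotype (edgeR adjusted p = 0.00676) and 0.56 for transfection (adjusted p = 0.00764). In the parental line MYOCD was the only one of the 7 called after sorbitol, against either isotonic group. Over all genes 24.1% were called against WT Ctr and 15.1% against WNK2 trans Ctr, so this count is not above that share.

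Other actin-dependent targets of SRF were mostly higher in the deletion line. Of 27 listed genes, 25 were tested and CCN2 and ITGA5 were listed at 0. In WNK2- Ctr against WT Ctr 17 were higher and 2 lower, beside 42.1% of all genes called in either direction, with a median log2 fold change of 0.36 beside 0.002 over all genes. CALD1, caldesmon, had the largest rise, 1.79 (SE 0.31, edgeR adjusted p = 5.32e-05) from 13 to 33 reads to 69 to 113, and CNN3, the acidic calponin, was lower by −0.38 (adjusted p = 6.44e-05) but not against WNK2 trans Ctr (0.01, adjusted p = 0.912). Against WNK2 trans Ctr 16 were higher and 1 lower (47.7% of all genes), and under sorbitol against WT Sor 15 were higher, led by ACTN1 at 1.15 (the actin crosslinker alpha-actinin), and 1 lower (46.3%). After sorbitol in the deletion line 1 gene was higher and 4 were lower (14.9%). In the parental line 3 were higher, led by CALD1 at 1.86, and 4 lower, led by CNN3 at −0.67, a share near the 24.1% of all genes. Against WNK2 trans Ctr 7 were higher and 2 lower in WT Sor (15.1%). In WNK2 trans 14 were higher, with CALD1 at 2.67, and 2 lower, with TAGLN2, the transgelin of non-muscle cells, at −0.69 (48%), and against WT Ctr 7 were higher and 2 lower (39.2%).

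The immediate early targets of SRF ran the other way. Of 10 genes, 8 were tested and FOSB and JUNB were listed at 0. In WNK2- Ctr against WT Ctr 6 were lower and 1 higher, beside 42.1% of all genes, with a median of −1.19, and against WNK2 trans Ctr 7 were lower and 1 higher (47.7%). EGR1 had 1272 to 1706 reads in WT Ctr and 334 to 499 in WNK2- Ctr, a log2 fold change of −2.39 (SE 0.22, edgeR adjusted p = 3.44e-09). FOSL1, whose product is a partner of JUN in AP-1, was higher by 1.65 (SE 0.21, adjusted p = 5.63e-07). Under sorbitol 7 of 8 were lower in WNK2- than in WT (46.3% of all genes), with EGR1 at −4.93 (adjusted p = 2.51e-14), and FOSL1 was higher by 1.55. In the parental line 2 of 8 were higher after sorbitol and none lower, a share near the 24.1% of all genes, with FOS at 1.54 (edgeR adjusted p = 2.05e-05). Against WNK2 trans Ctr FOS alone was called in WT Sor (1.10, adjusted p = 0.000892). In WNK2 trans 4 were lower after sorbitol, led by EGR3 at −1.80, and FOSL1 was higher (1.71), beside 48% of all genes. Against WT Ctr 2 were lower in WNK2 trans Sor, with EGR3 at −1.18, and 2 higher, FOSL1 and FOS (39.2%). The test of the difference between genotypes was −2.54 for EGR1 (SE 0.31, adjusted p = 5.93e-06), and −2.07 with WNK2 trans Ctr as the parental control (adjusted p = 0.000148).

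**Figure D5:**
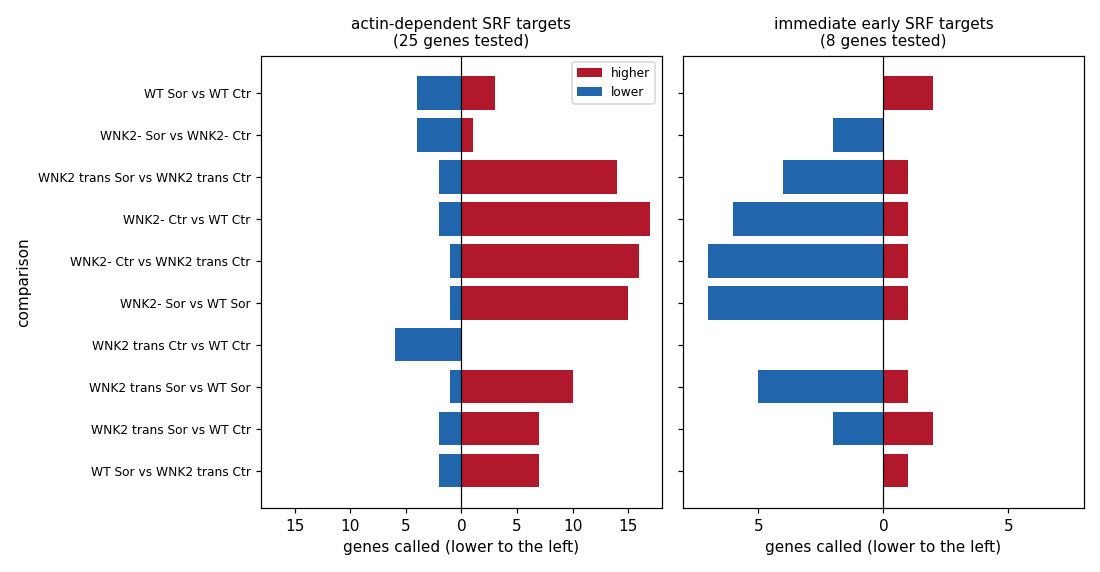
Numbers of genes called higher (red, to the right) and lower (blue, to the left) at an adjusted p under 0.05 in 10 pairwise comparisons, for 2 lists. In WNK2- Ctr against WT Ctr 17 of 25 actin-dependent targets were higher, and 6 of 8 immediate early targets were lower.

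Markers of other cell types moved beside these genes, and their part in the results was not tested. The chondrocyte markers, of the cell type the line came from, were lower in the deletion line. They summed to 18.6 to 20.6 CPM in WNK2- Ctr and 88.2 to 104.5 in WT Ctr. The sum was highest in WNK2 trans Sor, at 108 to 156 CPM, although most of the tested markers were lower there too. Of 6 tested, 4 were called lower and none higher against WT Ctr (median −1.75), led by COL2A1 at −3.71, beside 42.1% of all genes. In WNK2- Sor 5 were lower than in WT Sor (46.3%). WNK2 trans Sor also had 4 of 6 lower than WNK2 trans Ctr (median −2.20, 48% of all genes). The same number was lower against WT Sor (median −1.55, 31.7%) and WT Ctr (median −1.29, 39.2%). HAPLN1 led the markers called higher there, 2 against WNK2 trans Ctr and 1 against each of the others. Of the fibroblast and myofibroblast markers 7 of 9 were tested and THY1 was listed at 0. They summed to 12634 to 14693 CPM in WNK2- Ctr and to 20717 to 26384 in WT Ctr, and 5 of 7 were called lower and none higher, led by COL3A1, beside 42.1% of all genes. Under sorbitol 6 of 7 were lower in WNK2- than in WT, and FAP was higher (46.3% of all genes). WNK2 trans Sor had 5 of 7 lower against WT Sor (31.7%) and against WNK2 trans Ctr (48%). Against WT Ctr 4 were lower in WNK2 trans Sor (39.2%), and FAP alone was higher in each of these comparisons. In the parental line 5 of 7 were higher after sorbitol against WT Ctr, led by FAP (24.1% of all genes). Against WNK2 trans Ctr, in contrast, 4 were lower and FAP alone was higher in WT Sor (15.1%). WNK2 trans Ctr itself had 5 of 7 higher than WT Ctr (12.5% of all genes). Endothelial markers summed to 99.1 to 106 CPM in WNK2 trans Sor and to 24.9 to 41.2 in WNK2 trans Ctr, with CDH5 at 801 to 986 and 17.2 to 26.1 normalized counts, and 153 to 259 in WT Ctr. Skeletal and cardiac muscle markers summed to 1.96 CPM at most, and ACTC1, MYOD1 and TNNT2 were listed at 0 in every library.

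The 8 genes did not vary as a block. Over the 24 libraries the log2 CPM of SRF correlated most with CNN2 (r = 0.82) and TPM1 (0.80), both lower where the GC trend was lower. Within groups the pairs ran from −0.55 (TPM1 with TPM4) to 0.90 (CNN1 with CNN2, which both followed the GC trend). ACTG2 and TAGLN correlated at 0.78 within groups and at 0.25 over the 24 libraries. Outside the 10 genes, and among genes whose log2 CPM averaged 3 or more, the most similar pattern to SRF was that of KHSRP (r = 0.98), to TAGLN that of NQO1 (0.98), to TPM1 that of POFUT2 (0.96) and to TPM4 that of RBM3 (0.95). For CNN2 it was MPV17L2 (0.95), for CNN1 ERGIC1 (0.91), for ACTG2 MLPH (0.89) and for LMOD1 FYCO1 (0.69). These correlations are over 24 libraries that fall into 6 groups.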

How the data were processed

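Total RNA was enriched for poly(A) and sequenced in quadruplicate. The authors counted aligned reads per Ensembl gene and deposited raw counts without normalization; the submitters' processing notes name HISAT2 2.2.1 and HTSeq 2.0.2 on GRCh38. A non-unique or overlapping read may have been discarded in that step, and the strand setting was not given in the sources used here. From the counts, 16600 genes were kept by filterByExpr with a minimum count of 10 and a minimum total of 15. TMM factors scaled the libraries, which were modelled as 6 group means over 24 libraries by the quasi-likelihood test of edgeR 4.0.16 in R 4.3.3, with Benjamini-Hochberg adjustment within each of 12 comparisons and a threshold of 0.05. The SE is the log2 fold change over the root of F. The test was checked on simulated counts. Positions and exon lengths are from GENCODE 29 on GRCh38, GC content from its longest transcript per gene, and promoters from RefSeq.

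The genes and lists were chosen with earlier results of these data known. All 10 genes were named, with WNK2, ACTB, ACTG1, the SRF cofactors, for each other list the most changed called gene in each direction, and the non-member gene of nearest pattern. Other genes named in counts of 5 or fewer, or as markers, were named after their values were seen. DESeq2 1.42.0, RLE factors, no filter, a block for the replicate number, a fit restricted to the groups compared, counts thinned to 14153002 and each library left out in turn were the alternatives. A correction for GC content and length (splines with 5 degrees of freedom) and an exchange of the isotonic groups WT Ctr and WNK2 trans Ctr in the interaction terms were added after seeing the data. No 2 libraries of a group agreed within sampling noise (chi-square per degree of freedom 2.22 to 62.3 over 36 pairs). The labels do not say whether replicates were separate cultures, so p-values measure the spread between these libraries. Results for 1 further list of actin regulators are not reported here, since they need an item that is withheld.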

Additional observations from a re-analysis of the deposited data

Results flagged for a closer look

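The normalized count of TPM1 in WNK2 trans Ctr replicate 1, 6481, stood apart from the other 3 libraries of its group, which lay between 7167 and 7225. Its gap was 0.922 of the group's range, above Dixon's 95% critical value for 4 libraries. Of 54 sets of a gene and a group looked at it was the only one to do so, and chance alone marks about 5% of such sets.

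The response to sorbitol differed between backgrounds by the interaction term of the edgeR fit in 8 cases. Between the deletion line and the parental line the differences were −1.63 for CNN1, −1.08 for ACTG2, −0.77 for TPM1 and −0.57 for TAGLN. Between the libraries labelled WNK2 trans and the parental line they were −1.18 for CNN1, −1.17 for TPM1, −1.03 for TAGLN and 0.62 for ACTG2. The WNK2 counts go against the labels in the control groups WT Ctr and WNK2 trans Ctr. With these put in each other's place, the former were −1.53, −1.48, −0.57 and −0.09, the last without a call, and the latter −0.97, −0.78, −0.08 and −0.18, of which only TPM1 kept its call.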

How the results depend on the processing

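Among results that had passed the test, 1 changed direction: the transfection term of ACTG2, at −0.18 with the isotonic groups WT Ctr and WNK2 trans Ctr put in each other's place, a setting chosen after seeing the data and run for both interaction terms. There 1 contractile gene in place of 4, and 906 genes in place of 5897, were called for transfection, and 562 genes in place of 1436 for genotype. The counts of called genes left the range of 1.5 times their main value in 27 checks, against 721 within it. With the compared groups fitted alone, the contractile genes called were 1 in place of 2 for WT Sor against WT Ctr, 7 in place of 4 for WNK2- Sor against WNK2- Ctr, 0 in place of 1 for WNK2 trans Ctr and 3 in place of 5 for WNK2 trans Sor, both against WT Ctr, 2 in place of 1 for WT Sor against WNK2 trans Ctr, and 6 in place of 3 for WNK2- Ctr against WNK2 trans Ctr. Over all genes that fit called 4824 in place of 2473 for WNK2- Sor against WNK2- Ctr, and against WT Ctr 747 in place of 2082 for WNK2 trans Ctr and 3018 in place of 6509 for WNK2 trans Sor. It uses fewer samples. The correction for GC content and length, chosen after seeing the data, gave 6 contractile genes in place of 3 for WNK2- Sor against WT Sor, 3 in place of 1 for WT Sor against WNK2 trans Ctr, and 5 in place of 3 for WNK2- Ctr against WNK2 trans Ctr. Over all genes it called 4077 in place of 2473 for WNK2- Sor against WNK2- Ctr, 3178 in place of 2082 for WNK2 trans Ctr against WT Ctr, 4220 in place of 2499 for WT Sor against WNK2 trans Ctr, and 2321 in place of 1436 for the genotype interaction. With single libraries left out in turn there were 3 to 6 contractile genes for WNK2- Ctr and 3 to 7 for WNK2 trans Sor against WT Ctr, 1 to 2 for WNK2 trans Ctr against WT Ctr, 3 to 5 for WNK2 trans Sor against WT Sor, and 849 (without WNK2- Sor replicate 3) to 1908 genes for the genotype interaction. The lowest count of 3 for WNK2- Ctr came without WT Ctr replicate 2, and the highest of 7 without WNK2 trans Sor replicate 1. The causes were not tested.

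The replicate numbers were not found to pair the libraries as a whole: the correlations of same-numbered deviations ran from −0.27 to 0.46, with 7 of 40 above 0.1. In WNK2 trans Sor against WT Ctr all were positive, at 0.46, 0.26, 0.12 and 0.06 for replicates 1 to 4. With the number as a replicate block, 3894 genes in place of 4008 were called for WT Sor against WT Ctr, and the contractile genes called moved by at most 1, to 4 for WNK2 trans Sor against WT Sor and against WT Ctr and to 3 for the genotype interaction. LMOD1, with 4 to 30 reads per library, did not pass the filter in 2 fits. Depth limits genes with few reads, such as LMOD1, MYOCD, CALD1 and EGR3.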
